A study of Mus musculus with 2 samples.

Results

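The cell cycle genes followed here were 44 genes of mouse that act in DNA replication and cell division, matched by symbol among the 34144 genes listed for both libraries. All 44 were found, each with 1 identifier, and they were chosen by name and not by their values. By role, 16 act in replication (Mcm2 to Mcm7, Gins2, Pcna, Pclaf, Tyms, Rrm1, Rrm2, Uhrf1, Exo1, Neil3 and Ccne2) and the other 28 act mostly from late replication to cytokinesis and are called mitosis members below. The data were single-cell RNA profiles of wild-type C57BL6 mouse marrow from long bones, with 1 library labelled adult and 1 labelled old. Marrow had been flushed and digested, blood-forming cells had been depleted on an autoMACS separator, red cells had been lysed, and live cells had been sorted before the 10x 3′ kit. The labels give age as a word only, and the number of mice, their sex, ages in months and any pooling were not given in the sources used here. With 1 library per age there was no test between ages, and every interval below is an exact 95% interval of counting error only, in which the UMIs (unique molecular identifiers, 1 per captured transcript) of 1 cell are not independent of each other.

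A dividing cell first licenses its DNA with the MCM helicase and cyclin E, copies it with PCNA and a supply of nucleotides from ribonucleotide reductase and thymidylate synthase, and then makes a wave of mitotic transcripts for the kinases, centromere proteins, motors and the anaphase-promoting complex that separate the chromosomes. Many replication genes are known as targets of E2F factors, and many mitotic genes as targets of the DREAM complex, B-MYB and FOXM1 through an element called the CHR, often near CCAAT boxes. In bone marrow, CXCL12-abundant reticular (CAR) cells, bone-forming cells and vessel lining are known to divide seldom in the steady state, while erythroblasts and granulocyte precursors divide fast.

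Promoter sequences show how the replication and the mitosis members differ before any measurement. RefSeq windows of 300 bases, from 250 before to 50 after a gene's start (GRCm38.p6), were found by symbol for 37 of the 44 members, in 40 windows. Gins2, Mcm4, Ccna2, Exo1, Aurkb, Tpx2 and Ccne2 had none in the table used. The upstream 150 bases are shown for the 3 members of each sum with the most UMIs in the 2 libraries among those with 1 window. Capitals mark matches, on either strand, to an E2F motif (TTTGGCGC, TTTCCCGC, TTTGGCGG, TTTCCCGG, TTTGGCGA, TTCGCGCC, TTCCCGCC or TTGGCGGG), to the CHR (TTTGAA or TTCGAA) or to CCAAT, and neighbouring or overlapping matches run together.
Pcna, chr2:132253181-132253330, minus strand: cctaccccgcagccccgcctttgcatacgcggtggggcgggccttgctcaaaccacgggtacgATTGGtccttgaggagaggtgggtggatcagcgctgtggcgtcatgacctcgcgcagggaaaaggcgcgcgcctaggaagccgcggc
Rrm1, chr7:102441545-102441694, plus strand: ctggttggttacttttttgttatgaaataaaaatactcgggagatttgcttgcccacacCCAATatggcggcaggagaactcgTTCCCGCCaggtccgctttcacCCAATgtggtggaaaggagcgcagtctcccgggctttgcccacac
Mcm6, chr1:128359706-128359855, minus strand: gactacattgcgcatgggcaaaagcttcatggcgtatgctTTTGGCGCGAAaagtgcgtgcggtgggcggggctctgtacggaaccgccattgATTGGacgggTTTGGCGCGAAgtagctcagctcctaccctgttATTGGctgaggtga
Mki67, chr7:135716380-135716529, minus strand: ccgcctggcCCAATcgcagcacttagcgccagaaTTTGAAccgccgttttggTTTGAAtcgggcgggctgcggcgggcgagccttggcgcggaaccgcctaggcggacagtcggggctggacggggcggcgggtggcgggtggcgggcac
Top2a, chr11:99024190-99024339, minus strand: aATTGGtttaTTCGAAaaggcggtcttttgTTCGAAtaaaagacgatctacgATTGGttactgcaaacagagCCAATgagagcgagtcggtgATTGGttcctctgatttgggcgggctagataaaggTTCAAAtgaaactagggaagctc
Cenpa, chr5:30666736-30666885, plus strand: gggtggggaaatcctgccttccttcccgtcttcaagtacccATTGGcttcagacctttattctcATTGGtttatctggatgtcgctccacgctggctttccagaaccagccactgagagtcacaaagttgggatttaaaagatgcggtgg

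The Mcm6 stretch holds 4 E2F matches, which overlap in pairs, and 2 CCAAT boxes, and the Mki67 and Top2a stretches hold CHR matches and CCAAT boxes but no E2F match. The Rrm1 stretch holds 1 E2F match and 2 CCAAT boxes. In the Pcna stretch there is 1 CCAAT box but no E2F match, and in the Cenpa stretch 2 CCAAT boxes but no CHR match. Over whole windows, a CHR match lay in 21 of 26 windows of mitosis members (80.8%), in 3 of 14 of replication members (21.4%) and in 19.2% of all 32851 windows. An E2F match lay in 7 of 14 windows of replication members (50%), in 1 of 26 of mitosis members (3.85%, Birc5) and in 6.13% of all windows. CCAAT on either strand was in 85.7% and 88.5% of the windows of replication and mitosis members and in 37.4% of all. A CHR together with CCAAT lay in 20 of 26 windows of mitosis members (76.9%) and in 7.53% of all windows. The mitosis members without a CHR match in the window were Ccnb1, Birc5, Cenpe, Nusap1 and Diaph3, and the replication members with one were Mcm2, Mcm7 and Neil3. These matches describe letters and not bound sites.

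Barcodes numbered 25635 (adult) and 22298 (old), with 208637421 and 229917243 UMIs in all. After barcodes under 500 genes or over 10% mitochondrial UMIs were left out, 22403 adult and 18975 old cells remained, and 108 barcodes were shared between the libraries. Cells were put in classes by the mean log level of marker lists, so a class is a range of a score, not a proven type. Cells that passed several gates were left out, with no doublet caller run. CAR cells numbered 13819 and 13716 (adult and old) with median totals of 7358 and 7494.5 UMIs, of which 236 and 490 lay within 10% of the gate. Osteolineage cells numbered 1772 and 534 (15124 and 11198.5 UMIs), endothelial cells 1319 and 305 (4869 and 4043), erythroid cells 171 and 879 (5689 and 53716) and neutrophil lineage cells 16 and 84. Chondrocytes were 110 in the adult library (35278.5 UMIs), and no old cell passed that gate. Leaving out cells of several gates took unequal parts of the libraries. With each such cell kept in the class of its highest score relative to the threshold, osteolineage cells would number 3506 (adult) and 579 (old). Adult chondrocytes would number 312, endothelial cells 1484 and 327, and CAR cells 15016 and 13901. In each class the summed level of its own markers stood highest, and the median per 10000 UMIs of erythroid markers was 0 in every class but the erythroid one. The gates were set on these same lists, so this describes the gates and is no separate check of the classes. CAR cells also carried osteolineage markers, at 64.7 per 10000 UMIs in adult and 25.04 in old cells, against 228 and 211 for CAR markers.

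Per UMI sequenced, the 44 genes stood highest in erythroid cells among the 6 classes. Their summed level was 8449 counts per 1000000 class UMIs (CPM) among adult cells and 6586 CPM among old ones. It was 269 and 247 CPM in CAR cells, 297 and 417 in osteolineage cells, 643 and 346 in endothelial cells, 1219 in adult chondrocytes and 1820 in old neutrophil lineage cells. The 16 adult neutrophil lineage cells held 23 member UMIs and are not compared. Although erythroid cells were 4.63% of old cells, they held 80.3% of that library's member UMIs, while in the adult library they were 0.763% of cells and held 15.4%, less than the 34.3% held by CAR cells. Any comparison of the whole libraries, such as Mki67 at 32.7 CPM in adult against 130.5 CPM in old, is therefore mostly a comparison with erythroid UMIs of the old library.

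**Figure D1:**
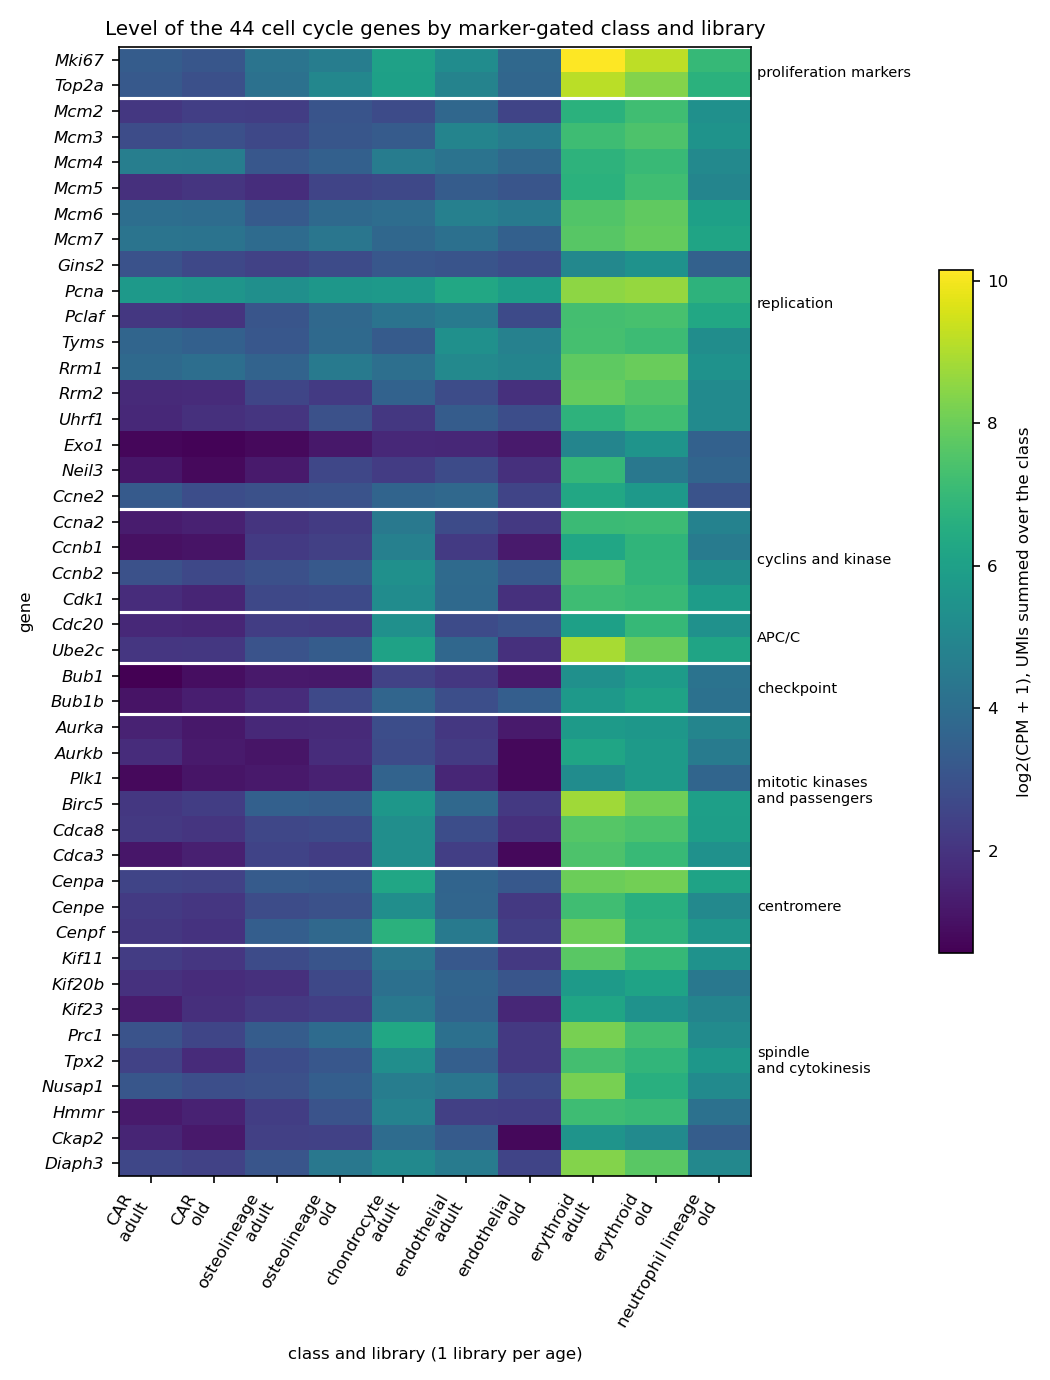
Heat map of log2(CPM + 1) for the 44 genes (rows, in role groups) by class and library (columns), with UMIs summed over the class. The erythroid columns are brightest for nearly all genes, and in CAR cells Pcna (52.5 and 46.6 CPM) and Mcm4 (24.7 and 23.5 CPM) stand above the others.

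The share of cells whose members summed to 5 or more UMIs followed depth as well as type, so it is given for all UMIs and after each cell was thinned to 4000 UMIs, with shallower cells left out. Before thinning the share was 86.5% of adult and 94.99% of old erythroid cells, 66.4% of chondrocytes, 23.3% and 15.9% of osteolineage cells, 10.8% and 7.21% of endothelial cells and 9.36% and 8.26% of CAR cells. After thinning it was 77.3% (67.7% to 85.2%, 75 of 97) and 90.8% (88.6% to 92.7%, 738 of 813) of erythroid cells, and 17.6% (9.47% to 28.8%, 12 of 68) of old neutrophil lineage cells. In adult neutrophil lineage cells it was 0 of 10, which allows a share of up to 30%. Thinned chondrocytes reached 5 in 14.6% (8.39% to 22.9%, 15 of 103). Endothelial cells did so in 6.11% (4.55% to 8.00%, 49 of 802) of adult and 4.49% (1.82% to 9.03%, 7 of 156) of old cells, and osteolineage cells in 3.39% (2.54% to 4.43%, 51 of 1504) and 3.59% (2.14% to 5.61%, 18 of 502). For both classes the intervals of the ages overlapped after thinning. Before thinning those of osteolineage cells did not, at 21.3% to 25.3% in the adult and 12.9% to 19.3% in the old library. Thinning left out 268 adult and 32 old osteolineage cells.

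CAR cells reached 5 least often among the classes with 100 or more thinned cells in both libraries. The share was 1.504% in the adult (1.29% to 1.75%, 170 of 11303) and 0.765% in the old library (0.613% to 0.943%, 87 of 11368), and these intervals do not overlap. Thinning left out 2516 and 2348 CAR cells. The ratio of old to adult was 0.509, but 0.883 without thinning and 0.891 with a sum of 3. As comparison classes, megakaryocytes (median totals of 1591 and 1704 UMIs) reached 5 in 2.12% and 2.27% of cells before thinning, and thinned pericytes or smooth muscle cells (5967 and 5815 UMIs before thinning) in 2.95% (8 of 271) and 0.787% (1 of 127). Old plasma cells (35033 UMIs) went from 45.9% to 5.59% (62 of 1110). In the old library the CAR share was thus no higher than that of pericytes, of which 1 cell reached 5. Free RNA in droplets adds to any sum this low, and its part was not tested.

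**Figure D2:**
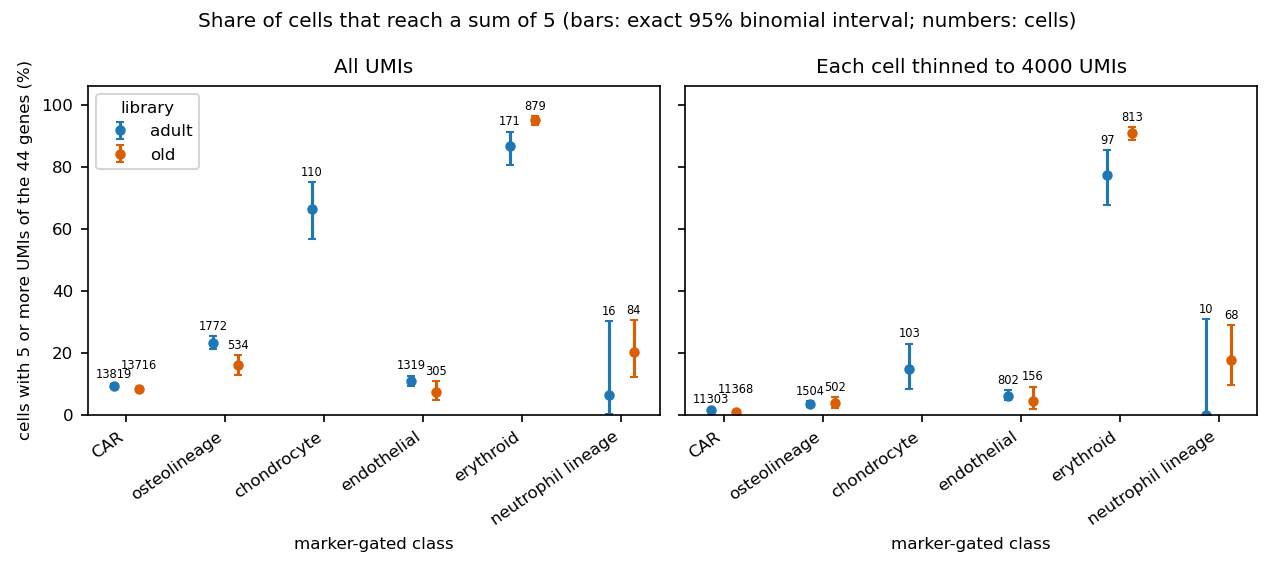
Percent of cells with 5 or more UMIs of the 44 genes in each class, for all UMIs (left) and after thinning each cell to 4000 UMIs (right), with adult in blue and old in orange. Bars are exact 95% binomial intervals and numbers are cells, and thinning brings chondrocytes from 66.4% to 14.6% while erythroid cells stay above 77%.

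In CAR cells the replication members made up most of the signal and were spread over many cells. Pcna, the sliding clamp of DNA polymerase, was the most abundant at 52.5 (adult) and 46.6 (old) CPM and had a UMI in 31.2% and 29.4% of them. Mcm4, Mcm7 and Mcm6, subunits of the replicative helicase, stood at 24.7 and 23.5, 18.0 and 17.8, and 15.4 and 14.5 CPM in adult and old cells. Their partners in the same hexamer were lower, with Mcm3 at 5.89 and 6.49, Mcm2 at 3.32 and 4.05 and Mcm5 at 2.73 and 3.14 CPM, so the subunits were not detected at equal levels in CAR cells. In erythroid cells the 6 subunits lay closer together, from 100.9 to 202 CPM in adult cells and from 131 to 233 CPM in old ones. Replication members held 64.2% (63.7% to 64.8%) of member UMIs in adult and 65.8% (65.2% to 66.3%) in old CAR cells. That share was 43.8% and 44.9% in osteolineage cells, 50.7% and 64.6% in endothelial cells, 27.7% and 38.0% in erythroid cells and 16.8% in adult chondrocytes.

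The mitosis members, in contrast, sat in few CAR cells. In the adult library 118 of 13819 CAR cells (0.854%, 0.707% to 1.02%) had 10 or more mitosis UMIs, and they held 33.6% of the class's mitosis UMIs and 7.27% of its replication UMIs. In the old library 31 of 13716 (0.226%, 0.154% to 0.321%) did, with 15.8% of mitosis and 2.82% of replication UMIs. The intervals do not overlap, and the ratio of old to adult was 0.265. The median depth of these cells was 12389.5 (adult) and 13248 (old) UMIs, above that of the class. This threshold was chosen after the data were seen. With 5 or 20 mitosis UMIs in its place the ratio was 0.388 or 0.381.

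Erythroid RNA was present in these cells. Erythroid markers summed to 172 CPM in the adult CAR cells with 10 mitosis UMIs against 19.5 CPM in the remaining CAR cells, and to 182 against 33.1 CPM in the old library. Haemoglobin stood at 8002 against 366 CPM (adult) and at 423 against 891 CPM (old). A UMI of an erythroid marker was present in 71 of the 118 adult and 18 of the 31 old cells, against 13.1% and 22.1% of all CAR cells. When CAR cells with such a UMI were left out (1813 adult and 3032 old cells), 47 of 12006 adult cells (0.391%, 0.288% to 0.520%) and 13 of 10684 old cells (0.122%, 0.0648% to 0.208%) still had 10 mitosis UMIs, a ratio of 0.311. The share was thus lower in both libraries and the lower side was again the old library. The remaining CAR cells, those under 10 mitosis UMIs, had the mitosis members at 64.9 (adult) and 71.6 (old) CPM, with at least 1 such UMI in 33.2% and 40.2% of them. The part of free erythroid RNA in these low values was not tested.

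To see which members mark the same cells, each gene's CPM was compared between CAR cells with 10 or more UMIs of the other mitosis members and the remaining CAR cells. Cells with an erythroid marker UMI were kept in this comparison, and the part of erythroid RNA in the folds was not tested. All 28 mitosis members were higher in those cells, with a median of 29.6-fold (8.90-fold for Nusap1 to 155-fold for Bub1) in the adult and 34.96-fold (14.1-fold for Aurkb to 169-fold for Cenpf) in the old library. Top2a, the topoisomerase that untangles sister DNA, stood at 294 against 4.82 CPM in adult and 296 against 5.29 CPM in old cells. Mki67, which coats mitotic chromosomes, stood at 272 against 6.40 and 391 against 6.37 CPM. Cenpf, an outer kinetochore protein, stood at 135 against 1.49 and 292 against 1.73 CPM. Diaph3, a formin of the cleavage furrow, stood at 182 against 2.79 and 291 against 3.31 CPM.

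The 16 replication members split in this comparison. Mcm4, Mcm7, Pcna and Gins2, the last a subunit of the GINS helicase complex, were 2.61-fold to 3.50-fold higher in the adult and 2.92-fold to 3.71-fold higher in the old library. Pcna, for example, stood at 149 against 51.1 CPM in adult and 171 against 46.1 CPM in old cells. Pclaf, a PCNA-binding protein, was 68.6-fold and 83.5-fold higher, at 116 against 1.69 CPM in adult and 184 against 2.20 CPM in old cells. Neil3, a DNA glycosylase of replication-coupled crosslink repair, was 140-fold and 64.4-fold higher. Rrm2 (36.1-fold and 19.2-fold), the S-phase subunit of ribonucleotide reductase, lay far above Rrm1 (5.40-fold and 5.56-fold), its constant subunit. Uhrf1 (27.1-fold and 22.9-fold), which maintains DNA methylation behind the fork, and Exo1 (32.6-fold and 31.6-fold), a repair exonuclease, also stood with the mitosis members. Ccne2, cyclin E2, was 4.52-fold and 9.83-fold higher. Both libraries put Pclaf, Neil3, Rrm2, Uhrf1 and Exo1 above the other 11 replication members.

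**Figure D3:**
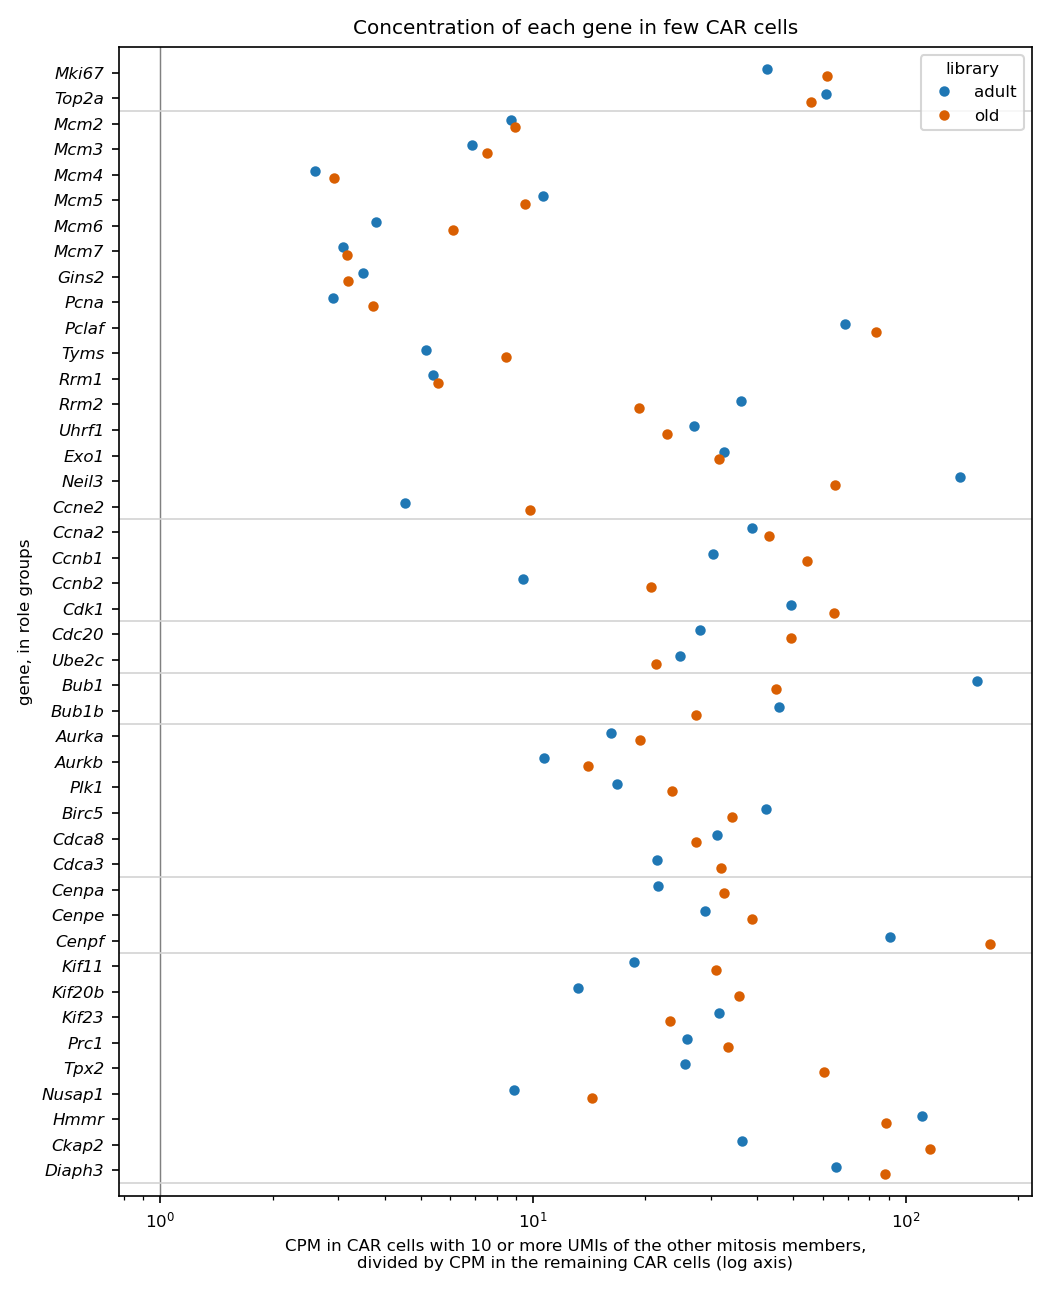
Fold of each gene's CPM in CAR cells with 10 or more UMIs of the other mitosis members over the remaining CAR cells, on a log axis, with adult in blue and old in orange. Mitosis members lie from 8.90 to 169, while Pcna, Mcm4, Mcm7 and Gins2 lie under 4 in both libraries. Cells with an erythroid marker UMI were kept.

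Between ages, no member differed by 2-fold in CAR cells. Under the other settings 0 to 2 were 2-fold higher in old cells, with no share over all genes taken there. All 44 had 50 or more UMIs in the 2 libraries together. Of these, 0 were 2-fold or more higher in old cells and 0 were as much lower, against 5.36% higher and 6.45% lower among the 18597 genes past the same minimum. By sign alone 16 were higher and 28 lower, and the median log2 ratio of old to adult was -0.14, against -0.00 over all genes. The lowest ratios were those of Tpx2, the spindle assembly factor, at 4.45 (adult) and 2.31 (old) CPM (log2 ratio -0.94, interval -1.16 to -0.72), of Aurkb, the kinase of the chromosomal passenger complex, at 2.45 and 1.40 CPM (-0.81, -1.10 to -0.53), and of Neil3 at 1.23 and 0.733 CPM (-0.75, -1.16 to -0.34). Ccne2 stood at 8.66 and 6.10 CPM (-0.51, -0.65 to -0.36). The highest were the spindle checkpoint kinase Bub1 at 0.477 and 0.874 CPM (0.87, 0.38 to 1.38), the midzone kinesin Kif23 at 1.48 and 2.66 CPM (0.85, 0.57 to 1.13), the mitotic kinase Plk1 at 0.743 and 1.15 CPM (0.63, 0.22 to 1.04) and the checkpoint protein Bub1b at 1.096 and 1.59 CPM (0.54, 0.20 to 0.88). These 8 intervals did not include 0, but the genes were named for their ratios and the intervals hold counting error only. Whether genes of the same machinery differ in direction between ages was not tested.

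Level and spread parted for Mki67 and Top2a in CAR cells. Mki67 was at 9.11 (adult) and 7.85 (old) CPM, yet had a UMI in 3.22% of adult and 4.86% of old cells. Top2a showed the same, with 8.38 and 6.42 CPM and a UMI in 3.68% and 4.06% of cells. The UMIs of both genes were thus held by fewer and richer cells in the adult library.

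Of 47 other cell cycle genes, 46 had 50 UMIs in CAR cells, with 2 higher and 2 lower by 2-fold or more in old cells. Over all genes past the same minimum 5.36% were as much higher and 6.45% as much lower, so the list as a whole did not stand out. Ccnd3, a D-type cyclin of early cycle entry, was at 80.2 (adult) and 165 (old) CPM (log2 ratio 1.04, 1.01 to 1.08). Ccnd1, another D-type cyclin, was at 3.42 and 7.87 CPM (1.202, 1.03 to 1.38), but its ratio came down to 0.57 under 1 of the other settings. Of the inhibitors of the kinases these cyclins bind, Cdkn2b was at 3.51 and 0.6002 CPM (-2.55, -2.94 to -2.17) and Cdkn2a at 0.919 and 0.441 CPM (-1.06, -1.58 to -0.56). Over the other settings the Cdkn2a ratio lay between -1.45 and -0.93. Cdkn2c, of the same inhibitor family, was at 12.75 and 12.70 CPM (-0.0052, -0.11 to 0.10), and Cdkn2d at 23.5 and 18.2 CPM (-0.36, -0.45 to -0.28).

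In osteolineage cells most members were higher in the old library, as were most genes, and the direction of the sum depended on how cells were weighted. The 44 genes summed to 297 (adult) and 417 (old) CPM, a log2 ratio of 0.49. With each cell weighted alike the values were 615 and 365 CPM and the log2 ratio was -0.75, and with a stricter gate it was 0.086. Adult osteolineage cells under 2000 UMIs, 127 in all, had the members at 3570 CPM, against 268 CPM in the 1130 adult cells over 10000 UMIs, and the old library had 8 cells under 2000 UMIs. Cells with 10 or more mitosis UMIs were 4.35% (3.44% to 5.40%, 77 of 1772) of adult and 2.43% (1.30% to 4.13%, 13 of 534) of old cells, with overlapping intervals, and 22 of the 77 and 0 of the 13 were under 2000 UMIs. An erythroid marker UMI was present in 35 of the 77 and 4 of the 13, against 17.3% and 25.1% of the class, and without such cells the shares were 2.86% (42 of 1466) and 2.25% (9 of 400). The 77 and 13 cells held 71.0% and 75.0% of mitosis UMIs, so 13 old cells carried most of what was measured there.

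Of the 43 members with 50 UMIs in osteolineage cells, 37 were higher in the old library and 6 lower, with a median log2 ratio of 0.38 against 0.24 over all 13389 genes. At least 2-fold higher were 5 of the 43 members, a share near the 12.0% of all genes, so by this count the members did not stand out. At least 2-fold lower were 0, against 6.27% of all genes. The 5 were Neil3 at 1.40 (adult) and 5.07 (old) CPM (log2 ratio 1.86, 1.19 to 2.52), Diaph3 at 7.57 and 19.997 CPM (1.40, 1.09 to 1.704), Bub1b at 2.43 and 5.35 CPM (1.14, 0.54 to 1.71), Uhrf1 at 3.16 and 6.76 CPM (1.096, 0.57 to 1.60) and Aurkb at 1.13 and 2.39 CPM (1.09, 0.17 to 1.95). That count lay between 0 and 10 under other settings, and 10 members were at least 2-fold lower with cells weighted alike. The share over all genes was not taken under those settings. Neil3 and Aurkb were thus on the higher side here and on the lower side in CAR cells, a difference that was not tested. Exo1 alone had under 50 UMIs.

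Among the 46 other cell cycle genes measured in osteolineage cells, 5 were higher and 1 lower by 2-fold or more in old cells. Over all genes past the same minimum these shares were 12.0% and 6.27%, so the list as a whole did not stand out. Ccnd3 was at 36.6 (adult) and 202 (old) CPM (log2 ratio 2.46) and Ccnd1 at 40.6 and 180 CPM (2.15). Cdk6, the kinase partner of D-type cyclins, was at 22.7 and 73.8 CPM (1.704), and Wee1, the kinase that restrains Cdk1, was at 28.3 and 10.7 CPM (-1.40). All 4 ratios kept their sign with cells weighted alike, at 2.20, 2.07, 1.29 and -1.44. The old class also held fewer osteolineage markers, with a median of 207 per 10000 UMIs against 762 in the adult, and whether the classes hold the same stages was not tested.

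Adult chondrocytes had a profile led by mitosis members. Cenpf stood highest at 103 CPM and was found in 15.5% of the 110 cells, followed by Prc1, the midzone bundling protein, at 77.4 CPM in 20%, and Cenpa, the centromeric histone, at 75.2 CPM in 22.7%. Pcna was at 52.5 CPM but in 69.1% of cells. The 19 cells with 10 or more mitosis UMIs (17.3%, 10.7% to 25.7%) held 95.4% of mitosis UMIs and 48.9% of replication UMIs. With no old chondrocytes there is no comparison of ages.

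Endothelial cells had lower levels of nearly all members in the old library. Of the 33 members with 50 UMIs, 31 were lower and 2 higher, and the median log2 ratio was -1.16 against -0.06 over all 10986 genes. At least 2-fold lower were 18 members, against 8.11% of all genes, and 0 were at least 2-fold higher, against 5.07%. The count of lower members was 11 with each cell weighted alike, a setting in which the share over all genes was not taken. The old class was small, with 503 member UMIs against 4867, and 11 members did not reach 50 UMIs. Mki67 was at 36.4 (adult) and 13.1 (old) CPM (log2 ratio -1.48, -2.23 to -0.81), Diaph3 at 22.3 and 4.82 CPM (-2.21, -3.55 to -1.14) and Cenpf at 21.4 and 4.13 CPM (-2.38, -3.84 to -1.22). Cdk1, the kinase that drives mitosis, was at 13.4 and 2.75 CPM (-2.28, -4.18 to -0.88), and Ube2c, a ubiquitin-conjugating enzyme of the anaphase-promoting complex, at 12.7 and 2.75 CPM (-2.21, -4.11 to -0.80). Ckap2, a spindle protein, had 68 UMIs in adult and 1 in old cells (-3.71, -9.03 to -1.18).

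Replication members were lower by less in old endothelial cells. All 13 with 50 UMIs had a negative log2 ratio, with a median of -0.44, and 3 (Pclaf, Ccne2 and Mcm2) were at least 2-fold lower. Rrm1 was at 33.2 and 28.9 CPM in adult and old cells (-0.20, -0.71 to 0.28), Mcm6 at 25.5 and 21.3 CPM (-0.26, -0.86 to 0.29) and Pcna at 78.1 and 59.2 CPM (-0.40, -0.74 to -0.07). Pclaf, the lowest ratio among them, was at 21.2 and 5.504 CPM (-1.94, -3.18 to -0.93). The share of replication among member UMIs was 50.7% (49.3% to 52.1%) in adult and 64.6% (60.3% to 68.8%) in old cells. Adult cells with 10 or more mitosis UMIs, 31 of 1319 (2.35%, 1.60% to 3.32%), held 71.4% of mitosis UMIs, while 1 of 305 old cells (0.328%, 0.00830% to 1.81%) had so many. In the remaining endothelial cells the mitosis members were at 94.95 (adult) and 115 (old) CPM, so outside those few cells the adult level was not the higher one. The intervals of the 2 shares overlap, and adult cells over 10000 UMIs had the highest level, at 1145 CPM.

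Of 47 other cell cycle genes, 35 had 50 UMIs in endothelial cells, with 10 lower and 0 higher by 2-fold or more in old cells. Over all genes past the same minimum 8.11% were as much lower and 5.07% as much higher. Hells, a chromatin remodeller of replicating cells, was at 23.4 and 4.82 CPM (log2 ratio -2.28, -3.62 to -1.21). Tacc3, a spindle protein, had 51 and 2 UMIs (-2.29, -5.38 to -0.37), Anln, the anillin of the cleavage furrow, had 48 and 2 (-2.21, -5.29 to -0.27), and Ect2, an activator of furrow formation, had 58 and 1 (-3.48, -8.81 to -0.94).

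**Figure D4:**
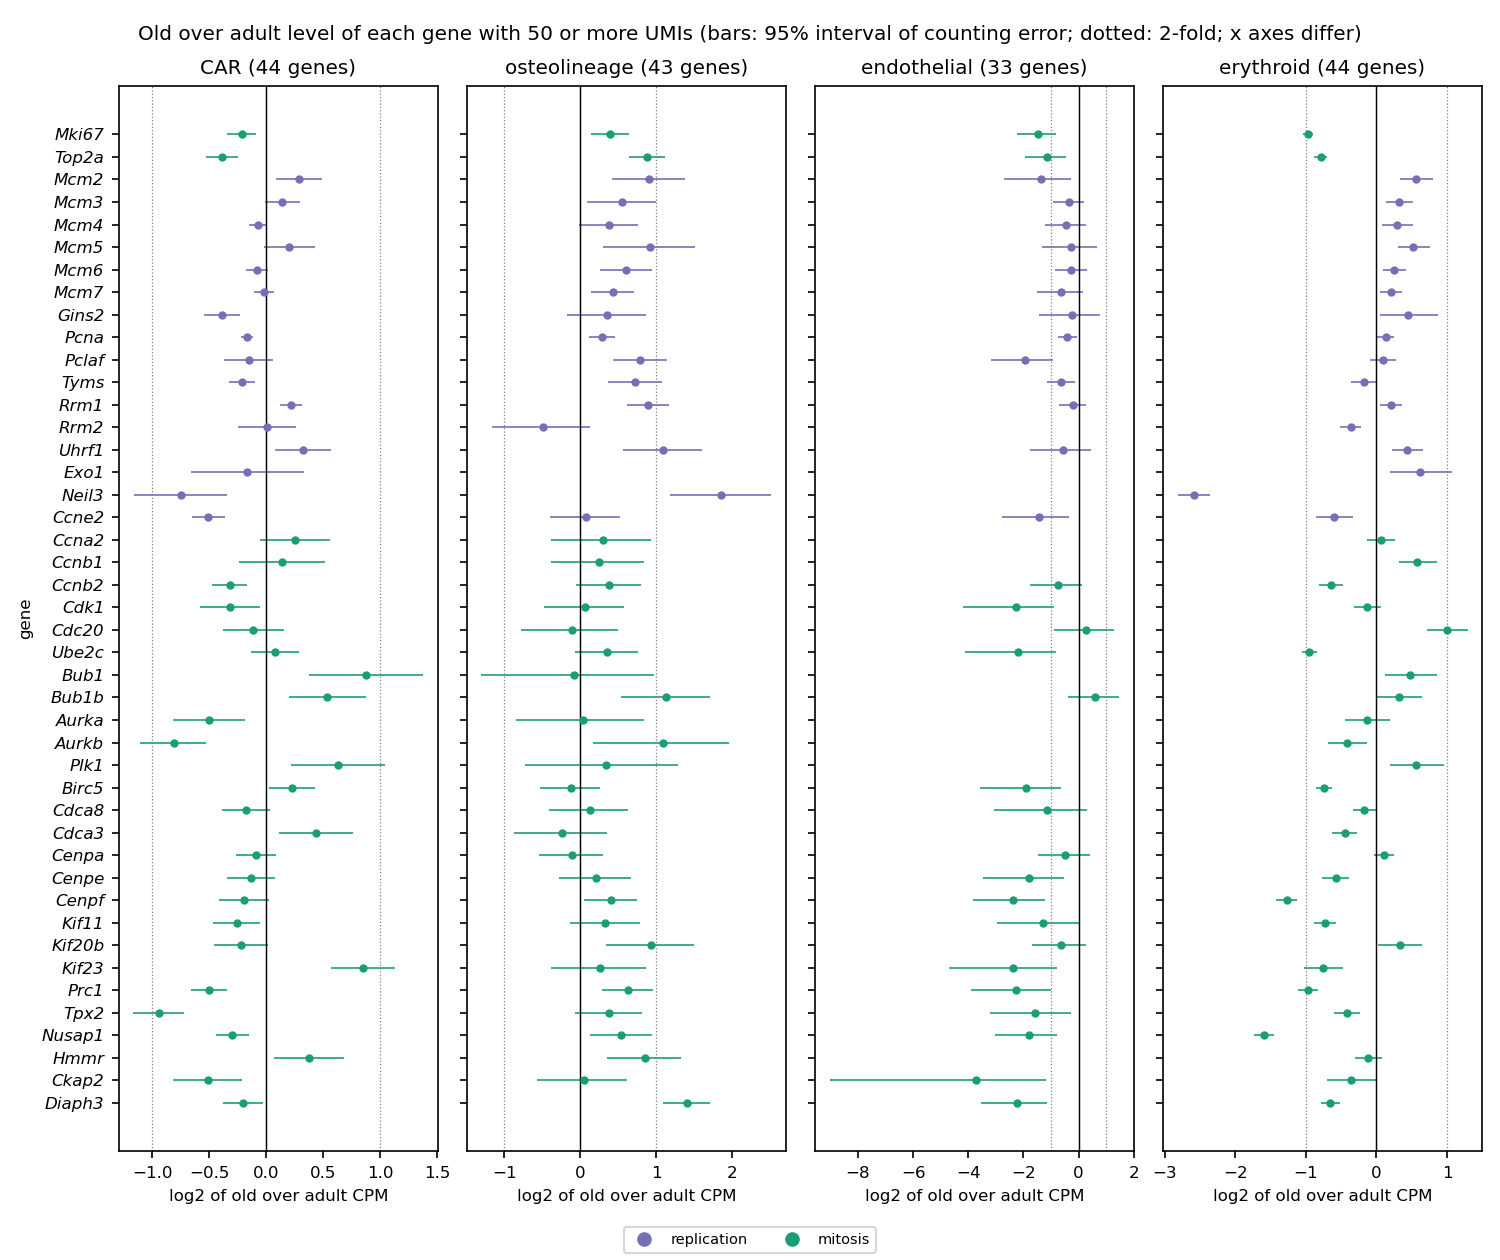
Log2 ratio of old to adult CPM for each gene with 50 or more UMIs in CAR, osteolineage, endothelial and erythroid cells, with replication members in purple and mitosis members in green. Bars are 95% intervals of counting error and dotted lines mark 2-fold, and endothelial ratios lie mostly below 0 (31 of 33) while CAR ratios stay within 1 of 0.

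The erythroid class was not one stage, and the stages had different weights in the libraries. Cells in which haemoglobin made up under 1% of UMIs were 63 of 171 adult cells (36.8%) and 609 of 879 old cells (69.3%), with median totals of 1814 and 65196 UMIs. In these cells Klf1, an erythroid transcription factor, had a UMI in 41.3% (adult) and 96.6% (old) of cells. Epor, the erythropoietin receptor, had a UMI in 44.4% and 91.6%, and Car1, a carbonic anhydrase of early erythroid cells, in 49.2% and 97.9%. Because the depths differ, these shares cannot be read as levels. Per UMI the libraries lay closer, with Klf1 at 142 (adult) and 173 (old) CPM. Epor was at 86.1 and 83.3 CPM and Car1 at 1681 and 1677 CPM. Slc4a1 and Alas2, markers of later erythroblasts, were at 13.3 and 9.70 CPM in adult and 0.972 and 1.86 CPM in old cells of this range, and above 350 CPM in the ranges of more haemoglobin. Cells over 20% haemoglobin numbered 89 among adult cells (52.0%) and 209 among old ones (23.8%).

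Within each range the summed level of all members was closer between the libraries than in the class as a whole. The members summed to 6764 (adult) and 6375 (old) CPM under 1% haemoglobin, to 14935 and 13987 CPM between 1% and 20%, and to 9242 and 7934 CPM over 20%. For replication members alone it was not, with a log2 ratio of old to adult of 0.096 over the class and of 0.085, -0.21 and -0.32 in the order of haemoglobin share. For mitosis members the ratio within ranges was -0.19, -0.036 and -0.20. In the same order, replication members held 35.2%, 35.1% and 18.5% of member UMIs in the adult and 39.6%, 32.4% and 17.2% in the old library. Over the whole class the log2 ratio of the summed level was -0.36, and it was 0.061 when classes came from clusters. Of the 44 members 20 were higher and 24 lower in the old library. At least 2-fold lower were 3 (Neil3, Cenpf and Nusap1), against 10.6% of 11920 genes, and 0 were at least 2-fold higher, against 20.4%, while the median over all genes was 0.41. Haemoglobin, immunoglobulin, mitochondrial and ribosomal genes took 42.1% of adult and 28.4% of old UMIs. Leaving them out of the totals shifted every ratio by -0.31, after which 12 members were higher and 10 at least 2-fold lower. With a minimum of 1000 genes per cell, 7 were at least 2-fold lower. The share over all genes was not taken under either setting, so these 2 counts have no background beside them. Mcm4, Mcm6, Mcm7, Pcna, Pclaf, Rrm1, Ccna2 and Cenpa changed sign with the scaling.

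With haemoglobin and the other abundant genes left out of the totals, 25 of 28 mitosis members were higher over 20% haemoglobin than under 1% in each library, with median log2 differences of 1.38 (adult) and 1.30 (old). Cdc20 and Kif20b were lower in both libraries. Plk1 was lower in the adult (69.7 and 43.5 CPM, the latter from 11 UMIs) but higher in the old library (74.2 and 90.03 CPM), and Bub1 was higher in the adult (62.9 and 98.9 CPM) but lower in the old (78.2 and 74.6 CPM). Ube2c stood at 248 CPM under 1% and 2278 CPM over 20% in the adult and at 286 and 2259 CPM in the old library. Nusap1, a spindle protein, stood at 153 and 1218 CPM (adult) and 108 and 890 CPM (old), and Mki67 at 1184 and 3448 CPM and at 691 and 4091 CPM. Of the 16 replication members 7 were higher and 9 lower in each library. Exo1 was at 64.6 and 3.95 CPM in the adult, the latter from 1 UMI, and at 63.7 and 14.1 CPM in the old library, and Mcm6 at 389 and 154 and at 314 and 159 CPM. Neil3 went the other way, with 61.2 and 546 CPM (adult) and 17.7 and 318 CPM (old). Neil3 was thus lower in old cells in both of these ranges as well as in the class as a whole, where it stood at 123 (adult) and 20.4 (old) CPM (log2 ratio -2.59, -2.81 to -2.36). The part of the unequal stages in that ratio was not tested.

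**Figure D5:**
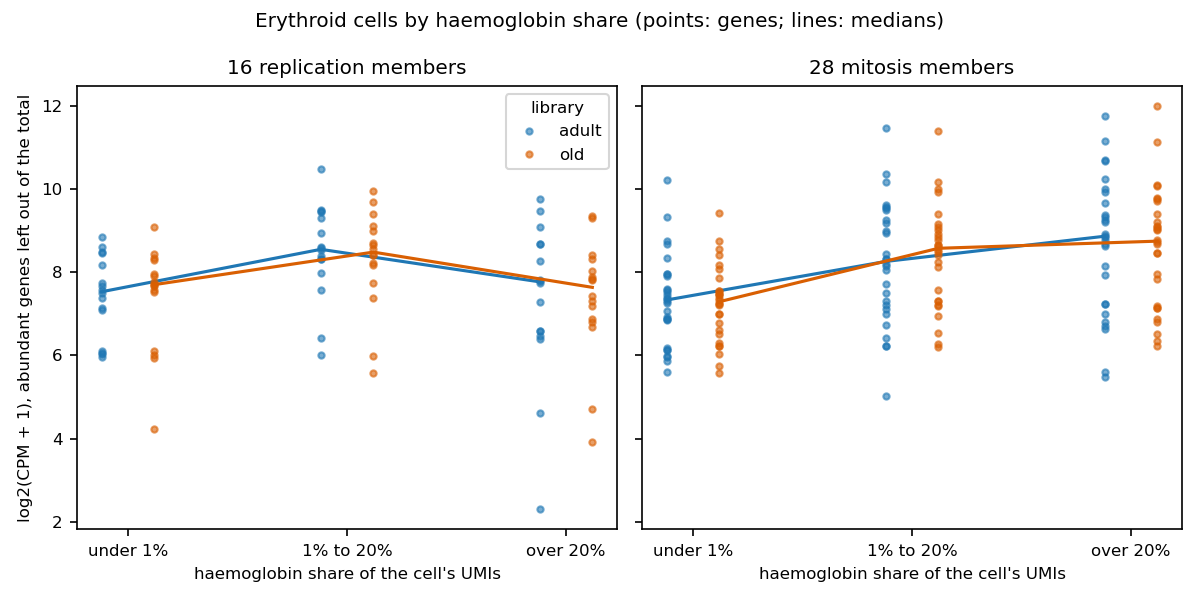
Log2(CPM + 1), with abundant genes left out of the total, of the 16 replication and 28 mitosis members (points) in erythroid cells by the haemoglobin share of their UMIs, with adult in blue and old in orange. Lines join the medians over genes, which rise with haemoglobin for the mitosis members and are highest at 1% to 20% for the replication members, in both libraries.

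Among other cell cycle genes of the erythroid class, those with the largest ratios are given. Ccnd2 was at 25.4 (adult) and 136 (old) CPM (log2 ratio 2.43). The inhibitors Cdkn2d and Cdkn1c were at 192 and 19.7 CPM (-3.29) and at 10.5 and 1.57 CPM (-2.74), and E2f2, an E2F factor of late erythroblasts, at 252 and 48.9 CPM (-2.37). With cells weighted alike the Cdkn2d and E2f2 ratios were -1.90 and -1.11. Of the 45 measured, 5 were higher and 7 lower by 2-fold or more in old cells, against the 20.4% and 10.6% of all genes given above.

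The 84 old neutrophil lineage cells held 1537 member UMIs. Mki67 was at 126 CPM and found in 22.6% of these cells, Pcna at 109 CPM in 19.0% and Top2a at 102 CPM in 14.3%. The 13 cells with 10 or more mitosis UMIs (15.5%, 8.51% to 25.01%) held 93.7% of mitosis and 91.9% of replication UMIs, so both sums sat in the same few cells there, unlike in CAR cells.

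Genes outside the 44 were also compared between cells that reached a sum of 5 and the others. In thinned CAR cells the non-members with the largest fold in both libraries included Pbk, Esco2, Ndc80, Dtl, Stil, Cenpm, Cdca2, an unnamed gene (ENSMUSG00000120992) and Ckap2l. Esco2, an acetyltransferase of sister chromatid cohesion, was at 25 CPM in adult CAR cells that reached 5 against 0.314 CPM in the others, and at 17.2 against 0.598 CPM in the old library, from 17 and 6 UMIs. Dtl, which targets proteins bound to PCNA for degradation, was at 45.6 against 2.07 CPM and at 48.9 against 1.71 CPM. In the old CAR cells that reached 5, Cdca2 had 3 UMIs, Ckap2l had 4, and Pbk and Ndc80 had 5 each. Erythroid markers were also higher in CAR cells that reached 5, at 144 against 19.2 CPM (adult) and 115 against 32.3 CPM (old). The part of erythroid RNA in these folds was not tested. In osteolineage cells the 10 were H2ac8, Lockd, H1f5, Stmn1, Hmgb2, Cks2, Incenp, Smc2, Lmnb1 and Cep128, and in endothelial cells Lmnb1, Prim2, Ezh2, Dnmt1, Hmgn2, Vars, Lig1, Stmn1, Ncapd3 and E2f7. H2ac8 and H1f5 encode a replication-dependent histone and a linker histone. H1f5 was at 196 against 2.58 CPM in adult and 181 against 7.23 CPM in old osteolineage cells. The old endothelial values rest on 7 cells.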

How the data were processed

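Single-cell RNA of 1 adult and 1 old library was used. The authors deposited raw UMI counts per gene and barcode, made with Cell Ranger 7.0.1 per the file headers and on GRCm39 per the submitters' processing notes. The annotation release, the counting of intron reads and any barcode filter were not given in the sources used here. Members and lists were chosen with earlier results of these data known. Barcodes needed 500 genes and at most 10% mitochondrial UMIs. A cell entered a class when the mean of log2(counts per 10000 + 1) over the class's markers reached a threshold set after the data were seen (2.5 for CAR, 1.7 for osteolineage, 1.5 for chondrocyte, 1.2 for endothelial, 0.6 for erythroid and 1.0 for neutrophil lineage cells) with at least 3 markers found. UMIs were summed per class and library and given as CPM, with exact Poisson or Clopper-Pearson intervals. A gene entered a comparison of ages with 50 UMIs in both libraries together. Thinning drew 4000 UMIs per cell without replacement. The functions were tested on simulated data. Named were all 44 members, up to 4 other cell cycle genes per class with the largest ratio, and the 10 non-members with the largest smaller fold of both libraries, of which 1 is not reported here. Clusters for 1 alternative used scanpy 1.11.5 and leidenalg 0.10.2, without cell cycle genes. UMIs are tags of transcript ends, so levels were not divided by gene length.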

Additional observations from a re-analysis of the deposited data

Results flagged for a closer look

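Barcodes that enter no comparison also held UMIs of the 44 genes, above the limit that a count of 0 allows. Among cells that passed no gate, 27.4% (24.5% to 30.4%, 243 of 888) in the adult library reached a sum of 5 and 13.3% (11.5% to 15.2%, 177 of 1334) in the old, and the adult ones that did had a median total of only 1225 UMIs. Mitosis members made up 76.8% of member UMIs in the adult and 70.0% in the old cells of that set. Among cells that passed several gates, 23.2% of 3560 adult and 41.9% of 461 old cells reached 5, with median totals of 13081.5 and 23775 UMIs in those that did. Among barcodes removed by the filters, 14.9% of 3232 adult and 14.99% of 3323 old ones did, with median totals of 1439 and 3871.5 UMIs. Which cells these are was not tested.

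The log2 ratio of old to adult of the summed level was 0.49 in osteolineage cells, -0.12 in CAR cells, -0.89 in endothelial cells and -0.36 in erythroid cells, so the osteolineage ratio had the opposite sign. With cells weighted alike it was -0.75, the sign of the other classes, and with classes from clusters the erythroid ratio was 0.061. The difference between classes was not tested.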

How the results depend on the processing

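Of 231 alternative values over 22 results, 184 stayed within counting error of the main value (counts within 1.5 times). A further 44 did not, and 3 changed sign from a main value whose interval excluded a ratio of 1 or a difference of 0. Results whose main interval included these also changed side, but were not counted as sign changes. Examples are the osteolineage replication difference (1.17 in the main setting, -0.21 at 1000 genes per cell) and share ratio (1.06, and 0.536 with classes from clusters). With cells weighted alike, the log2 ratio of the summed level was -0.057 in CAR, -0.75 in osteolineage (sign changed), -0.36 in endothelial and -0.41 in erythroid cells, members 2-fold higher numbered 2, 0, 1 and 1, and those 2-fold lower 10 in osteolineage and 11 in endothelial cells. With classes from clusters the summed ratio was -0.043 in CAR, 0.32 in osteolineage and 0.061 in erythroid cells (sign changed), the difference in replication percent was 0.11 in CAR and 9.15 in erythroid cells, and 1 member was 2-fold higher in each of CAR, osteolineage and erythroid cells. With the stricter gate the summed ratio was -0.082 in CAR, 0.086 in osteolineage and -0.30 in erythroid cells, the osteolineage share ratio was 0.429 and its replication difference 7.26, members 2-fold higher numbered 1, 2 and 1, and 6 were 2-fold lower in osteolineage cells. With cells of several gates kept the summed ratio was 0.35 in osteolineage and -0.17 in erythroid cells, with 3 and 1 members 2-fold higher. At 1000 genes per cell, 8 osteolineage members were 2-fold higher, 7 erythroid members 2-fold lower, and the erythroid summed ratio was -0.55. Scaling without abundant genes gave -0.66 and 10 members 2-fold lower in erythroid cells. Without Mki67, Top2a and Cenpf the erythroid ratio was -0.22, and without the member with most UMIs in each sum the erythroid replication difference was 9.05. The CAR share ratio was 0.891 at a sum of 3 and 0.883 without thinning. Among alternatives chosen after the data were seen, leaving out cells under 2000 UMIs gave 8 osteolineage members 2-fold higher. Leaving out cells with an erythroid marker UMI gave a CAR summed ratio of -0.064, 1 CAR member 2-fold higher and a CAR replication difference of -0.016 (sign changed), and in osteolineage cells a summed ratio of 0.70, 10 members 2-fold higher and a replication difference of -5.51. For all counts of members 2-fold higher or lower, the share over all genes was taken in the main setting only. The causes were not tested. No paired analysis was possible because each age has 1 library and no comparison had a test. With 1 library per age, mouse, library and age cannot be told apart, and members under 50 UMIs in a class could not be compared there.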
